A study of Bos taurus with 81 samples.

Results

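The regions described here are 1 kb bins of the cattle genome that carried H3K27ac in 8-cell embryos, had carried none as a called bin in oocytes or 4-cell embryos, and also carried it in 8-cell embryos cultured with the transcription inhibitor α-amanitin. The 29 autosomes were cut into 2488055 bins, and a bin was called marked in a peak list when at least 50% of its bases lay under peaks. A bin was taken when it was marked in both H3K27ac lists of 8-cell embryos (8C) and both of amanitin-treated 8-cell embryos (8A), and in no H3K27ac list of germinal vesicle oocytes (GV) or 4-cell embryos (4C). This gave 4423 bins, 0.178% of all autosomal bins, named resistant gains below. They were set against the sensitive gains, 20398 bins with the same history that neither 8A list marked. Both sets were thus chosen on H3K27ac in GV, 4C, 8C and 8A, so its values there are a description and were not tested. The rule left out 2-cell embryos (2C), in which H3K27ac lists marked 13.9% and 16.3% of the resistant gains and 2.34% and 2.91% of all bins, so some of these bins had carried the mark before.

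H3K27ac is the acetylation of lysine 27 on histone H3, placed by the acetyltransferases p300 and CBP at active promoters and enhancers. H3K4me3, trimethylation of lysine 4, marks promoters, and in mammalian oocytes it also lies in broad domains outside them. H3K27me3 and H3K9me3 are the marks of Polycomb-repressed chromatin and of constitutive heterochromatin. α-Amanitin blocks elongation by RNA polymerase II, and in cattle the main wave of embryonic transcription begins around the 8-cell stage, so treated embryos show which chromatin states form without it.

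All embryos were produced in vitro from oocytes of slaughterhouse ovaries and thawed semen. GV oocytes were taken before maturation. After insemination, 2C embryos were collected at 32 h, 4C at 44 h, 8C and 8A at 56 h, morulae (MO) at 122 h and blastocysts (BL) at 172 h. The 8A embryos were grown with 50 μg/ml α-amanitin, and when it was added is not stated in the labels. The inner cell mass (ICM) was isolated by immunosurgery and the trophectoderm (TE) by cutting with a scalpel, and their marker genes were not analysed here. Each library pooled about 500 oocytes or 1000 to 1500 blastomeres. CUT&Tag, which uses an antibody to bring a transposase to a histone mark, was done for the 4 marks in all 9 groups with 2 libraries each. ATAC-seq, which maps open chromatin, was done for BL, ICM and TE with 3 libraries each, making 81 libraries. The labels do not say that replicate libraries came from separate batches of embryos, so p-values below measure the spread between libraries, which may be technical. In pooled embryos, a mark in fewer cells and a weaker mark per cell cannot be told apart.

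The lists give peaks without library totals, so depth is unknown. Autosomal H3K27ac lists held 58732 to 158491 peaks and marked 1.26% to 6.05% of bins, with both 4C lists at the low end (1.26% and 1.36%). Paired lists agreed less in 2C and 4C than in the other groups: 14862 bins (0.597% of all) were marked in both 4C lists, 47.3% and 43.8% of each, and the 2C pair shared 51.2% and 41.2%, against 66.0% and 66.8% for 8C and 68.9% and 64.3% for 8A. H3K4me3 lists marked 1.56% to 7.47% of bins, H3K27me3 lists 4.42% to 11.3%, H3K9me3 lists 3.88% to 7.54% and ATAC lists 2.84% to 4.43%. Because list length varied, each library's share of marked resistant gains was also divided by its share of all autosomal bins, giving an enrichment on the log2 scale (0 where the gains are marked as often as the genome).

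Most H3K27ac gained by the 8-cell stage was missing from treated embryos, and the resistant gains were the minority that was present. Of 29666 gains marked in both 8C lists and in no GV or 4C list, 4423 (14.9%) were marked in both 8A lists, 4845 (16.3%) in 1 of them and 20398 (68.8%) in neither. Bins marked in both 8C lists that had already been marked in a GV or 4C list were found in both 8A lists more often, 20164 of 34102 (59.1%), and those marked in both 4C lists more often still, 6963 of 7627 (91.3%). Of all autosomal bins, 2.56% were marked in both 8C lists and 2.65% in both 8A lists. The 14.9% rose to 23.9% when 8A replicate 1 was left out of the rule, which then asks for 1 list fewer, and the resistant gains then numbered 7083.

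Many resistant gains were close to chromatin that carried H3K27ac earlier. A 4C peak covered some bases of 2881 of them (65.1%), with a median of 35.0% of the bin, whereas 3930 sensitive gains (19.3%) and 3.53% of all bins unmarked in GV and 4C had such bases. No base under any GV or 4C peak was found at 1281 resistant gains (29%), at 14745 sensitive gains (72.3%) and at 92.7% of all bins unmarked in GV and 4C. A neighbouring bin was marked in a GV or 4C list at 38.4% of resistant and 19.6% of sensitive gains. For all bins this share was not counted. Just inside the lower threshold lay 1009 resistant gains whose lowest coverage in the 8C and 8A lists was 50% to 55%, and just outside it 2684 bins at 40% to 45%. Just inside the upper threshold lay 1475 resistant gains whose highest GV or 4C coverage was 40% to 45%, and just outside it 985 bins at 50% to 55%. Many bins therefore lay close to either threshold.

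Resistant gains were small and scattered. They formed 3971 stretches of adjacent bins, of which 3599 were 1 bin long, 308 were 2 bins long and 64 had 3 bins or more, with 8 of 4 bins and 4 of 5 bins. Their density ran from 0.958 to 4.01 per Mb over the autosomes with a median of 1.76, highest on chromosome 18 with 264 of them. Among the gains of a chromosome, the resistant share ran from 10.3% to 21.6%, so every autosome held both kinds.

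**Figure D1:**
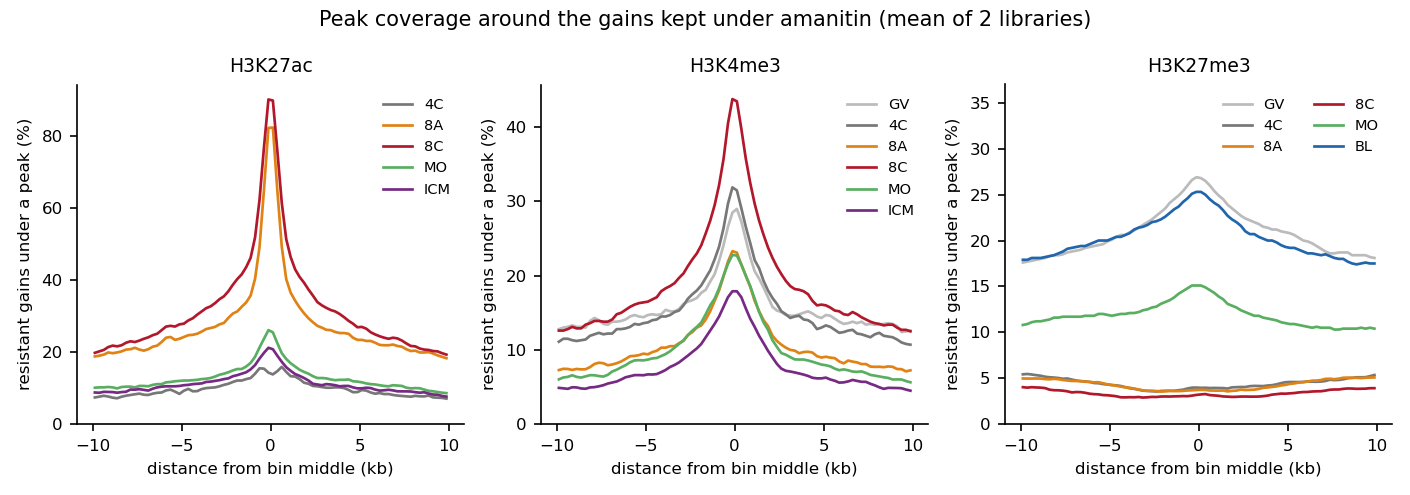
Percentage of the 4423 resistant gains covered by a peak (vertical axis) against the distance from the middle of the bin in kb (horizontal axis), for H3K27ac, H3K4me3 and H3K27me3; each line is the mean of the 2 libraries of a group. The central H3K27ac peak in 8C and 8A is set by the choice of bins, H3K4me3 peaks at the same place in all groups drawn, and H3K27me3 is high in GV and BL and low from 4C to 8C.

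The coverage plot showed H3K27ac spreading beyond the bins. At 1.75 to 2 kb on one side, 39.3% of the resistant gains were under an 8C peak and 30.8% under an 8A peak, as a mean of the 2 libraries. At 4.75 to 5 kb these values were 26.9% and 23.4%. Around sensitive gains, 8C coverage was 34.1% and 23.3% at the same distances, so the spread in 8C was not particular to resistant gains. The 8A coverage there was 9.62% and 7.98%, but sensitive gains were chosen as unmarked in 8A, so low values nearby follow in part from the rule.

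H3K4me3 was present at 27.3% to 35.6% of resistant gains before the 8-cell stage. In GV, 27.3% and 34.1% of them were marked by H3K4me3 (replicates 1 and 2). In 2C the values were 32.8% and 33.1%, and in 4C 31.3% and 35.6%. The same lists marked 3.85% to 7.47% of all autosomal bins, so the log2 enrichment was 2.21 ± 0.03 (SD, n = 2) in GV, 2.80 ± 0.02 in 2C and 3.00 ± 0.03 in 4C.

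H3K4me3 marked the most resistant gains at the 8-cell stage. From the morula on it marked fewer of them than from GV to 4C, but was more concentrated on them than in those groups. The share was 37.8% and 52.5% in 8C, the highest of all groups, then 22.7% and 24.1% in MO, 19.6% and 21.4% in BL, 18.6% and 18.4% in ICM and 20.5% and 19.4% in TE. Every library from MO on marked a smaller share than every library from GV to 4C. Over the genome the lists shortened more, to 1.56% to 2.02% of bins from MO on. The log2 enrichment was therefore above its GV to 4C values, at 3.63 ± 0.04 in MO, 3.40 ± 0.00 in BL, 3.56 ± 0.03 in ICM and 3.40 ± 0.01 in TE (SD, n = 2 each). It was already 3.63 ± 0.21 in 8C, so from 8C to MO the share fell without a rise in enrichment. Against GV to 4C, share and enrichment moved in opposite directions.

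Enrichment differed over the 8 untreated groups (permutation test of the F ratio with 100000 resamples, F = 78.8, p = 9.00e-05, Benjamini-Hochberg adjusted over 5 stage tests 0.000150). The mean was 0.83 lower on the log2 scale over the 6 libraries of GV, 2C and 4C (2.67) than over the 8 of MO, BL, ICM and TE (3.50), with no overlap between the groups (exact two-sided permutation test, p = 0.000333, adjusted over 6 comparisons 0.00200). This test shuffled single libraries, although the 2 of a group share a stage and BL holds ICM and TE. Its p therefore does not measure the spread between stages within a period.

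Counted by bin, 638 resistant gains (14.4%, against 1.97% of all autosomal bins) carried H3K4me3 in every GV, 2C and 4C list, and 2050 (46.3%, against 89.9%) in none of these 6 lists. H3K4me3 was present in all 18 lists at 234 resistant gains (5.29%, against 0.398%) and in no list at 1489 (33.7%, against 88.4%). Only 27 (0.610%, against 0.158%) carried it in every list from MO to TE and in none from GV to 4C. The reverse pattern, H3K4me3 in every list from GV to 4C and in none from MO to TE, was found at 175 (3.96%, against 1.18%). These were 175 of the 638 with H3K4me3 in every early list, against 29366 of 48997 such bins over the autosomes, a larger part.

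Sensitive gains had little H3K4me3 before the 8-cell stage. Between 3.81% and 6.71% of them were marked in the 6 GV, 2C and 4C lists, close to the genome, with log2 enrichment from -0.23 to 0.05. Within each library the enrichment of resistant gains exceeded that of sensitive gains, by 2.46 and 2.35 in GV, 2.94 and 2.76 in 2C and 3.04 and 3.02 in 4C. The mean difference of 2.76 (6.78-fold) was positive in 6 of 6 libraries (exact two-sided sign-flip permutation test, p = 0.0312, the smallest that 6 libraries allow, adjusted over 4 tests 0.0312). It was 2.83 between resistant and sensitive gains with no base under a GV or 4C H3K27ac peak. From MO on the difference was 1.60 (3.03-fold), positive in 8 of 8 libraries (exact sign-flip permutation test, p = 0.00781, adjusted 0.0104). The gap before the 8-cell stage was larger than the gap after it by 1.16 (exact two-sided permutation test over 14 libraries, p = 0.000333, adjusted over 3 tests of gaps 0.000999). That test shuffled single libraries too, so its p does not measure the spread between stages either.

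The 8C peaks over resistant gains were also wider and ranked higher by the deposited score than those over sensitive gains, as given below, so the sets were compared at matched 8C width. In bins whose 8C peak averaged at most 1025 bp, H3K4me3 marked 19.4% and 24.4% of 1146 resistant gains in 4C and 2.08% and 2.39% of 7445 sensitive gains. Above 2300 bp the values were 42.1% and 46.9% of 1092 resistant gains and 7.97% and 8.71% of 2975 sensitive gains. In both width bands the 2 sets did not overlap.

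**Figure D2:**
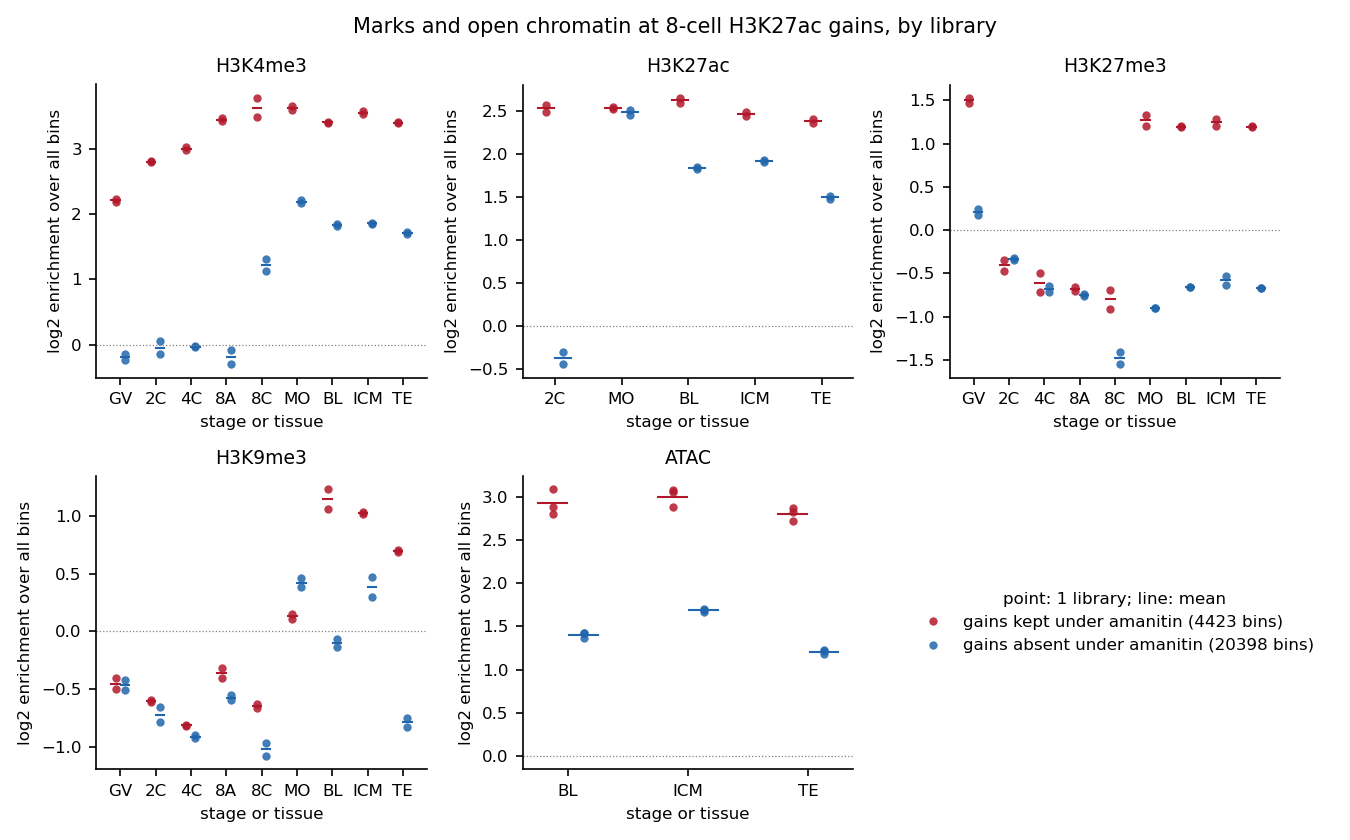
log2 enrichment of marked bins over all autosomal bins (vertical axis) by stage or tissue (horizontal axis) for each assay; points are libraries, short lines are means, red for the 4423 resistant gains and blue for the 20398 sensitive gains. H3K27ac in GV, 4C, 8A and 8C chose the sets and is not drawn; H3K4me3 of resistant gains lies above that of sensitive gains in every library, and H3K27ac of the 2 sets meets in MO.

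In treated embryos H3K4me3 at resistant gains stood below its 8C level, and few of the bins gained it. H3K4me3 marked 25.3% and 22.0% of them in 8A against 37.8% and 52.5% in 8C, and both 8A values lay below both 8C values and below both 4C values. The 8A lists were also shorter over the genome, 2.36% and 1.98% of bins against 2.76% and 4.72%, and the enrichment was 3.45 ± 0.04 in 8A and 3.63 ± 0.21 in 8C (SD, n = 2). The difference of -0.18 lay within the spread of the 8C pair (exact two-sided permutation test, p = 0.33, the smallest that 2 against 2 libraries allow). With bins covered to at least 80% this difference was 0.19 and with 2 kb bins 0.01, so its direction is not settled.

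New H3K4me3, in both 8C lists and no 4C list, was found at 283 resistant gains (6.40%, against 0.270% of all bins). Under amanitin the corresponding count, both 8A lists and no 4C list, was 8 (0.181%, against 0.0182%). H3K4me3 in both 8C lists and neither 8A list was found at 478 (10.8%, against 0.627%), and the reverse at 4 (0.0904%, against 0.0295%). Loss of H3K4me3 from both 4C lists to neither 8C list was found at 21 (0.475%, against 0.390%), and to neither 8A list at 183 (4.14%, against 0.880%). Of the 1200 resistant gains that both 4C lists marked, these were 1.75% and 15.2%. Over the autosomes both 4C lists marked 75622 bins, of which 9698 and 21888 were lost in the same way. Among bins that had the mark, resistant gains thus lost it less often.

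Split by H3K4me3 in 4C, the resistant gains fell into unlike classes. Both 4C lists marked 1200 of them (27.1%, against 3.04% of all bins), 1 list marked 559 (12.6%, against 2.29%) and none marked 2664 (60.2%, against 94.7%). Of the 1200 with H3K4me3 in 4C, 64% and 70.7% had carried it in GV and 90.1% and 97.8% carried it in 8C, and 77.9% and 70.4% in 8A. All autosomal bins with H3K4me3 in both 4C lists had 78.7% and 85.3% in GV, 63.7% and 85.7% in 8C and 62.7% and 55.2% in 8A. The 1200 thus lay below their own kind in GV and above it in 8C and 8A. Of the 2664 without it, 12.6% and 27.6% carried H3K4me3 in 8C, 2.18% and 1.35% in 8A and 5.48% and 6.46% in MO. All autosomal bins without it had 0.404% and 1.17% in 8C, 0.143% and 0.0892% in 8A and 0.631% and 0.791% in MO.

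The 1200 with early H3K4me3 more often kept H3K27ac. They were marked by H3K27ac at 39.2% and 40.6% in MO, 41.4% and 38.1% in ICM and 22.6% and 23.2% in TE. The 2664 without it were marked at 19.4% and 20.5% in MO, 13.8% and 12.3% in ICM and 6.42% and 6.38% in TE. The classes did not overlap in any of these 6 lists. Each class was also above all autosomal bins of its own kind. Bins with H3K4me3 in both 4C lists were marked at 24.3% and 24.3% in MO, 27.5% and 25.3% in ICM and 17.9% and 18.6% in TE. Bins without it were marked at 3.68% and 3.90%, 3.12% and 2.93%, and 1.65% and 1.75%, so relative to its own kind the class without H3K4me3 stood further above. Open chromatin followed the same split: 609 (50.7%) of the 1200 were in every ATAC list of TE, 662 (55.2%) in every one of ICM and 711 (59.2%) in every one of BL, against 138 (5.18%), 146 (5.48%) and 138 (5.18%) of the 2664, and 2.31%, 2.21% and 2.35% of all bins. By library, ATAC marked 56.3% to 73.0% of the 1200 and 34.8% to 46.8% of all bins with H3K4me3 in both 4C lists, and 6.79% to 11.7% of the 2664 and 1.51% to 2.65% of all bins without it.

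**Figure D3:**
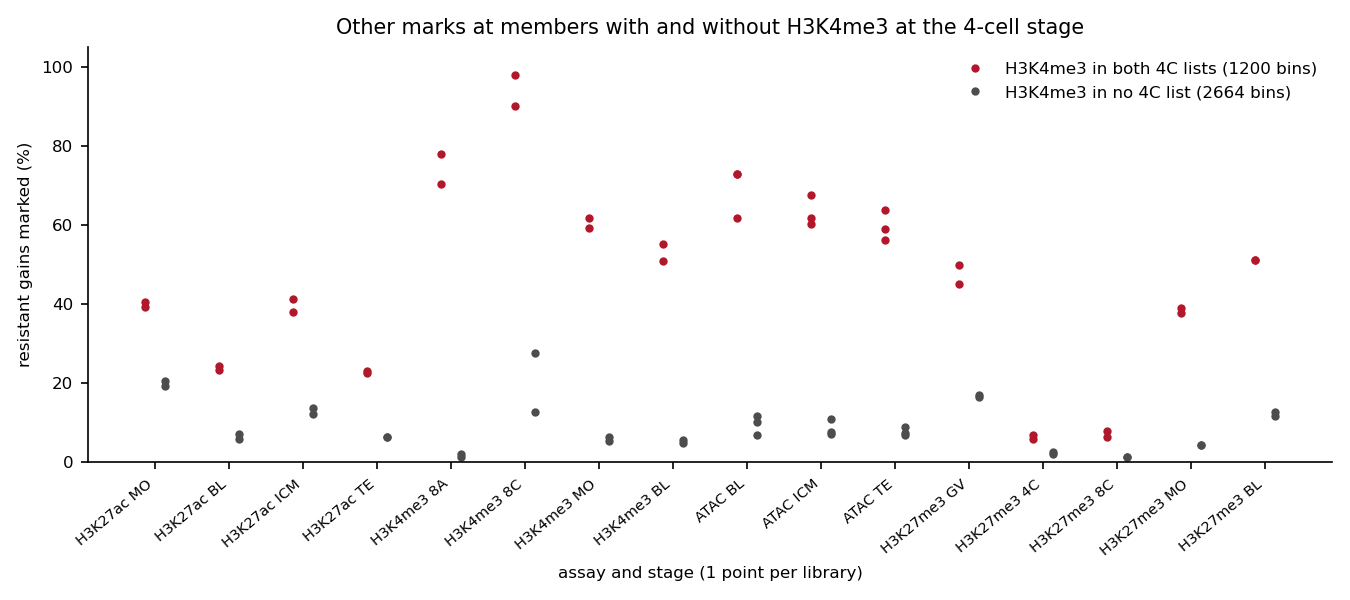
Percentage of resistant gains marked (vertical axis) in lists of other assays and stages (horizontal axis), 1 point per library, for the 1200 resistant gains with H3K4me3 in both 4C lists (red) and the 2664 with it in neither (grey). The red points lie above the grey points in each column, by the most for H3K4me3 in 8A and 8C.

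H3K27ac peaks over resistant gains were wide for their lists in 8C and narrower in 8A. The median width of 8C peaks that overlapped a resistant gain was 1250 and 1200 bp, against 900 and 850 bp over all autosomal peaks of these lists and 1050 and 1000 bp over sensitive gains. Their median rank by the deposited score was the 76.3 and 77.0 percentile of the list, against 63.8 and 64.2 over sensitive gains. In 8A the median width was 800 and 950 bp, against 550 and 750 bp for the lists. Since wide peaks more readily cover 50% of a bin, these widths follow in part from the rule.

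Taking the widest peak over each resistant gain, the median was 1450 and 1400 bp in 8C and 900 and 1050 bp in 8A. Both 8A peaks were narrower than both 8C peaks at 2114 resistant gains (47.8%), both were wider at 354 (8.00%), and the libraries overlapped at 1955 (44.2%). The 8A lists as a whole also held narrower peaks, as the medians above show, so a width difference that belongs to the resistant gains alone was not measured.

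The widest 8C peaks most often had H3K4me3 and most often lasted. When resistant gains were ordered by 8C width into 4 groups of equal size, those with the narrowest peaks (500 to 1025 bp, 1106 bins) carried H3K4me3 at 19.9% and 24.7% in 4C and H3K27ac at 17.5% and 19.2% in MO. Among those with the widest (2300 to 11525 bp, 1106 bins), these values were 42.0% and 46.8% in 4C and 37.3% and 36.3% in MO. The other 2 groups lay in between in each of these lists.

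H3K4me3 peaks over resistant gains were wider from the morula on than in earlier groups. Their median width was 800 and 950 bp in GV, 1000 and 1050 bp in 2C, 900 and 950 bp in 4C and 1050 and 1350 bp in 8C, but 750 and 650 bp in 8A. It was 2000 and 2100 bp in MO, 1900 and 1950 bp in BL, 2100 and 2150 bp in ICM and 2050 and 2250 bp in TE. Over whole lists the late medians were also above the 650 and 650 bp of 4C. They were 1250 and 1350 bp in MO, 800 and 800 bp in BL, 1400 and 1400 bp in ICM and 1250 and 1450 bp in TE. Peaks over resistant gains were wider than their list in all 18 libraries. Late peaks over sensitive gains were wide as well, with medians of 1650 and 1800 bp in MO, 1950 and 2000 bp in ICM and 2050 and 2250 bp in TE. A wide peak overlaps a chosen bin more readily, so these widths follow in part from the choice of peaks.

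**Figure D4:**
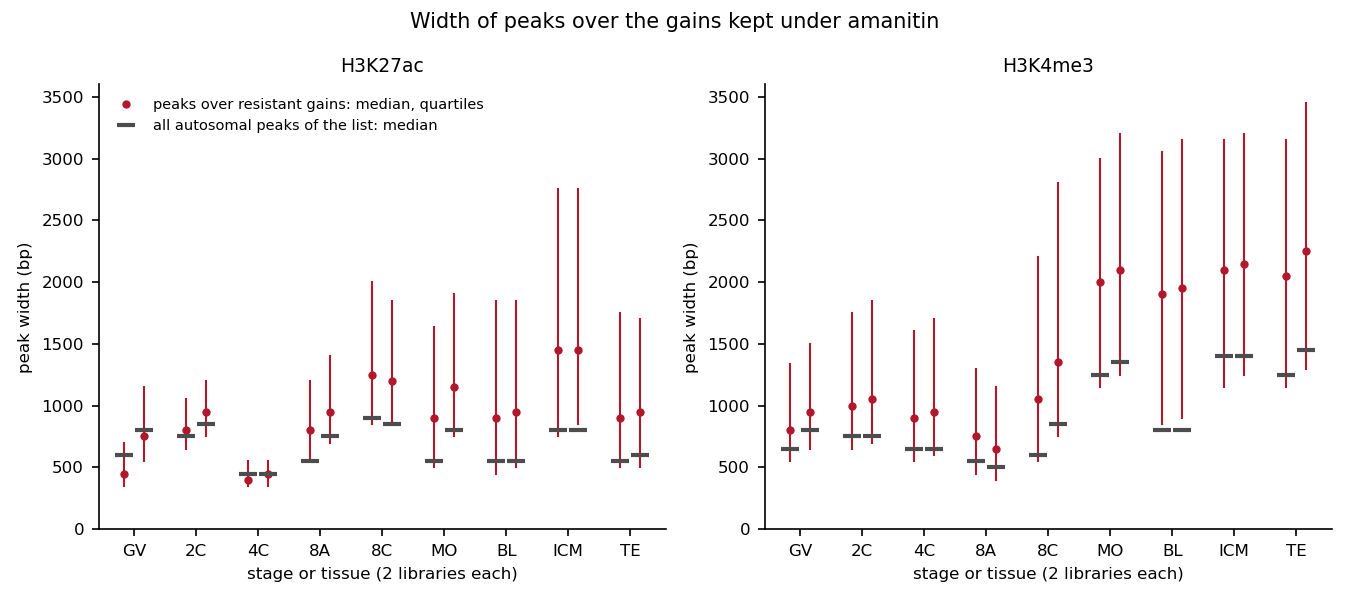
Width in bp (vertical axis) of H3K27ac peaks (left) and H3K4me3 peaks (right) by stage or tissue, 2 libraries each; red points are medians and red lines quartiles of peaks over resistant gains, grey dashes are medians of all autosomal peaks of the list. The 8A peaks are narrower than the 8C peaks for both marks, and H3K4me3 peaks over resistant gains reach medians of 2000 bp or more in MO, ICM and TE.

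H3K27ac was lost from most resistant gains by the morula. It marked 26.3% and 27.2% of them in MO, 12% and 12.9% in BL, 23.1% and 20.8% in ICM and 12.1% and 12.3% in TE. MO and ICM lists were thus higher than BL and TE lists with no overlap. All autosomal bins showed the same order, 4.54% and 4.74% in MO, 1.91% and 2.15% in BL, 4.11% and 3.83% in ICM and 2.28% and 2.40% in TE. The log2 enrichment was 2.53 ± 0.01 in MO, 2.62 ± 0.04 in BL, 2.47 ± 0.03 in ICM and 2.38 ± 0.04 in TE (SD, n = 2), and 2.53 ± 0.06 in 2C, which the rule did not use either.

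These 5 groups differed in enrichment, over a narrow range of means from 2.38 to 2.62 (permutation test with 100000 resamples, F = 9.70, p = 0.00967, adjusted over 5 stage tests 0.0121). This call was lost without GV replicate 1 in the rule (p = 0.0736) and with bins that began at 500 bp (p = 0.0699), by the same permutation test. ICM exceeded TE by 0.09, and MO was 0.09 below BL (exact two-sided permutation tests, p = 0.33 each, the smallest possible). In lists trimmed to equal length the ICM excess was 0.43.

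By bin, 2804 resistant gains (63.4%, against 92.0% of all bins) had H3K27ac in no MO, ICM or TE list. H3K27ac was in both lists of all 3 at 342 (7.73%, against 0.979%), in MO and ICM but no TE list at 205 (4.63%, against 0.684%) and in MO alone at 233 (5.27%, against 1.13%). The other full patterns were rarer: ICM alone at 75 (1.70%, against 0.564%), and 18 (0.407%) each for TE alone, MO with TE, and ICM with TE, against 0.307%, 0.0839% and 0.154% of all bins. With BL counted too, 2803 (63.4%, against 91.9%) had H3K27ac in no later list. At 710 (16.1%, against 4.13% of all bins) the paired lists of MO, ICM or TE disagreed. Both ICM lists and no TE list marked 339 (7.66%, against 1.53%), and both TE lists and no ICM list marked 41 (0.927%, against 0.447%). The ICM lists were longer than the TE lists, so this ratio does not compare the tissues at equal length.

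**Figure D5:**
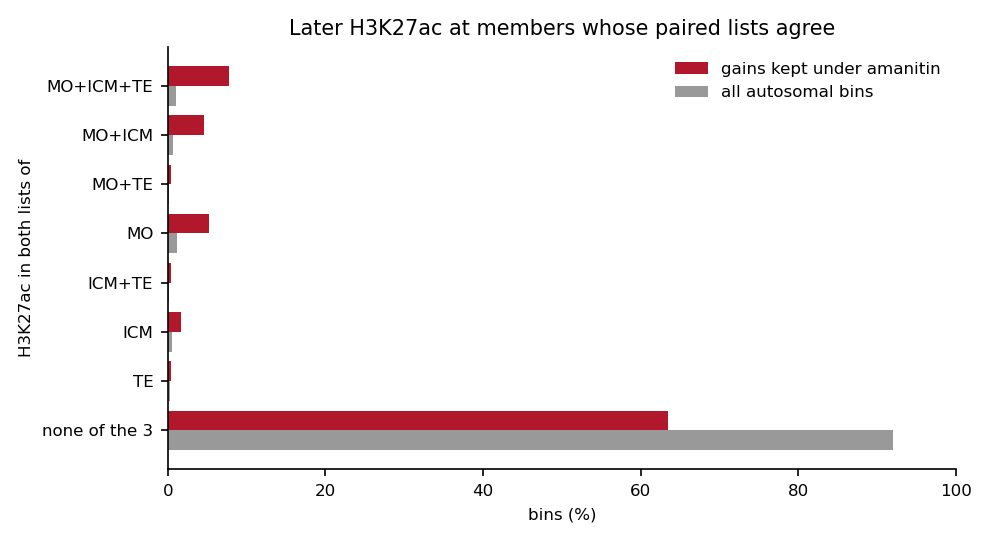
Percentage of bins (horizontal axis) with H3K27ac in both lists of the named groups and in no list of the others among MO, ICM and TE (vertical axis), for the 4423 resistant gains (red) and all autosomal bins (grey). The bins whose paired lists disagreed, 16.1% of resistant gains and 4.13% of all bins, are left out. Most resistant gains have H3K27ac in none of the 3, and among those that have it, all 3 groups together is the most frequent pattern.

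H3K27ac at resistant and sensitive gains had close values in the morula and differed later. In MO, 24.8% and 27.1% of sensitive gains were marked, beside 26.3% and 27.2% of resistant gains, and the enrichment differed by 0.09 and 0.01 on the log2 scale. The difference was 0.80 and 0.76 in BL, 0.59 and 0.51 in ICM and 0.89 and 0.87 in TE. Over the 8 libraries the mean was 0.56 (1.48-fold), positive in 8 of 8 (exact sign-flip permutation test, p = 0.00781, adjusted over 4 tests 0.0104). The 4 groups differed in this gap (exact permutation test of the F ratio over 8 libraries, F = 151, p = 0.00952, the smallest possible, adjusted over 3 tests of gaps 0.0143). At matched 8C width the sets kept their order in ICM and TE but not in MO. Up to 1025 bp, 17.3% and 19.0% of resistant and 19.6% and 22.3% of sensitive gains were marked in MO, 14.7% and 13.1% against 11.1% and 10.6% in ICM and 7.33% and 7.50% against 4.41% and 4.81% in TE. Above 2300 bp the MO values were 37.4% and 36.4% against 34.7% and 35.9%. In ICM and TE each list marked more resistant than sensitive gains in all 4 width bands, and these differences within bands were not tested. H3K27ac in both lists of MO, ICM and TE was found at 7.73% of resistant and 3.81% of sensitive gains, and in MO with no ICM or TE list at 5.27% and 8.91%.

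Resistant gains without any H3K27ac base in GV or 4C had similar later values. Of these 1281, H3K27ac marked 26.6% and 26.4% in MO, 22.6% and 20.5% in ICM and 11.5% and 12.2% in TE, within 1 percentage point of the values for all resistant gains. H3K4me3 marked 22.4% and 25.4% of them in 4C, lower than the 31.3% and 35.6% of all resistant gains.

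In the blastocyst, resistant gains were open more often than sensitive gains. ATAC peaks marked 24.1%, 30.0% and 30.8% of resistant gains in BL, 24.3%, 28.8% and 24.4% in ICM and 23.5%, 26.3% and 22.4% in TE. The log2 enrichment was 2.92 ± 0.15 in BL, 3.01 ± 0.11 in ICM and 2.81 ± 0.07 in TE (SD, n = 3), with no difference found over the tissues (exact permutation test, p = 0.168, adjusted 0.168). Sensitive gains were marked at 7.19% to 12.7%, and resistant gains exceeded them by 1.48 in log2 enrichment (2.79-fold), in 9 of 9 libraries (exact sign-flip permutation test, p = 0.00391, adjusted 0.0104). All 9 ATAC lists marked 694 resistant gains (15.7%, against 1.37% of all bins), and none marked 2700 (61%, against 92.9%). ICM exceeded TE by 0.20 (exact two-sided permutation test, 3 against 3 libraries, p = 0.10, the smallest possible, adjusted over 6 comparisons 0.300).

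H3K27me3 lay over part of the resistant gains in the oocyte, was rare on them from 2C to the 8-cell stage, and was back from the morula on. It marked 27.5% and 26.5% of them in GV, 2.98% to 4.43% in the 8 lists of 2C, 4C, 8C and 8A, 15.2% and 15.1% in MO and 22.7% to 25.8% in the 6 lists of BL, ICM and TE. The log2 enrichment was 1.5 ± 0.04 in GV and -0.80 ± 0.15 in 8C, and 1.27 ± 0.08, 1.2 ± 0.01, 1.24 ± 0.06 and 1.2 ± 0.01 in MO, BL, ICM and TE (SD, n = 2). It differed over the untreated groups (permutation test with 100000 resamples, F = 236, p = 5.00e-05, adjusted 0.000125). Treated embryos gave -0.68 ± 0.03, beside the 8C value. Peak widths and gaps differ between assays by construction of the lists, so levels are compared within an assay only.

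Both GV lists marked 1010 resistant gains with H3K27me3 (22.8%, against 7.28% of all bins) and both BL lists 1035 (23.4%, against 9.66%). These sets shared 619 (14.0%, against 4.02% of all bins), 61.3% of the former and 59.8% of the latter, while 55.3% of all GV bins were in both BL lists. Of the 619, 530 had H3K27me3 in no 2C, 4C or 8C list (12% of resistant gains, against 2.52% of all bins). The 1010 also carried more H3K4me3 in 4C, 56.6% and 61%, than the 3045 without H3K27me3 in GV, 22.7% and 26.8%. All autosomal bins of the same classes had 22.5% and 26.1% against 2.17% and 2.55%, so this contrast was not particular to resistant gains. Sensitive gains had H3K27me3 at 10.8% and 11.3% in GV and at 6.41% to 7.14% in BL, ICM and TE. In these later tissues they lay below the resistant gains in every library, a difference that was not tested.

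Among resistant gains, H3K27ac and H3K27me3 seldom went together at the same bin in later stages. Of the 991 resistant gains with H3K27ac in both MO lists (22.4%, against 3.54% of all bins), 22 (2.22%) also had H3K27me3 in both, against 589 (13.3%) of all resistant gains and 5.26% of all bins. In BL, 10 of 477 (2.10%) had both marks, against 1035 of 4423 (23.4%) for H3K27me3 alone, and all bins gave 1.71% for H3K27ac. In ICM, 28 of 842 (3.33%) had both, against 948 (21.4%) for H3K27me3 alone, with all bins at 3.21% and 8.58% for H3K27ac and H3K27me3. In TE, 4 of 463 (0.864%) had both, against 1019 (23.0%), with all bins at 1.89% and 9.62%. H3K4me3 showed no such separation from H3K27me3. Of the bins with H3K27me3 in both lists, 180 of 589 (30.6%) also had H3K4me3 in both MO lists, against 21.3% of all resistant gains and 1.65% of all bins. In BL it was 168 of 1035 (16.2%, against 18.9% and 1.73%), in ICM 132 of 948 (13.9%, against 16.7% and 1.37%) and in TE 173 of 1019 (17.0%, against 18.1% and 1.64%). For all bins only each mark alone was counted, so neither pattern is shown to be particular to resistant gains.

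H3K9me3 was scarce at resistant gains until the morula and rose afterwards where both GV lists had H3K27me3. Over all resistant gains it marked 3.32% to 6.40% from GV to MO, 9.45% and 11.2% in BL, 7.87% and 10.4% in ICM and 9.97% in both TE lists. At the 1010 with H3K27me3 in both GV lists it went from 1.88% and 1.29% in GV to 30.4% and 34.3% in BL. At the 3045 with H3K27me3 in no GV list it went from 7.13% and 6.73% to 2.66% and 3.61%. All autosomal bins of each kind were split likewise in BL, 26.9% and 33.5% against 1.93% and 2.76%. The log2 enrichment was below 0 in all lists from GV to 8C and 1.14 ± 0.13 in BL, 1.02 ± 0.01 in ICM and 0.69 ± 0.01 in TE (SD, n = 2), and it differed over the untreated groups (permutation test, F = 490, p = 1e-05, the smallest that 100000 resamples give, adjusted 5.00e-05).

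Named stretches show these patterns in place, with coordinates of the ARS-UCD1.2 build and coverage as the percentage of bases under peaks. They are the 10 longest stretches and the longest of each of 10 classes, with ties taken in order of chromosome and start. The stretch chr4:93432001-93437000, 5 kb long, stands for gains that were lost. H3K27ac covered 27% and 9% of it in 4C, 81% and 83% in 8C, 63% and 71% in 8A and 0% in every list from MO on. H3K4me3 covered 18% and 25% of it in 8C and 0% in every other group, and ATAC covered none of it.

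At chr7:14829001-14834000, also 5 kb, H3K4me3 was broad before the 8-cell stage. It covered 0% in GV, 73% and 60% in 2C, 84% and 67% in 4C, 94% and 100% in 8C and 61% and 73% in 8A. H3K27ac covered 6% and 3% in GV, 19% and 28% in 2C, 0% in 4C, 98% and 94% in 8C, 88% and 77% in 8A, 76% and 74% in ICM and 0% in TE. H3K27me3 covered all of it in both GV lists, none in 2C, 4C, 8A and MO, 52% and 84% in 8C, and 60% to 100% in BL, ICM and TE.

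The stretch chr23:9061001-9066000 kept H3K27ac late, at 96% and 89% in MO, 91% and 68% in ICM and 52% and 47% in TE. H3K4me3 covered 62% and 64% of it in 4C. H3K9me3 covered 100% of it in every list from GV to 8C and 8A, and H3K27me3 100% in every list of 2C, 4C, 8C and 8A, so active and repressive marks were all called there. Whether this stacking bears on the calls there was not tested. The remaining 5 kb stretch, chr7:101354001-101359000, was covered by H3K27ac at 89% and 94% in 8C, 86% and 73% in 8A and 0% in MO and ICM.

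Of the 8 stretches of 4 kb, 6 are among the 10 named for length. The stretch chr12:22796001-22800000 was the longest with H3K27ac in both ICM and no TE list. H3K27ac covered 28.8% and 56.2% of it in MO, 92.5% and 77.5% in ICM and 0% in TE, while H3K4me3 covered 100% and 96.2% in ICM and 50% and 47.5% in TE. At chr6:108748001-108752000, H3K27ac fell from 97.5% and 100% in 8C to 40% and 42.5% in MO and 0% later, and H3K27me3 covered all of it in GV and again in every list from MO on. The stretch chr7:12365001-12369000 had H3K27ac at 85% and 97.5% in 8C and 0% from MO on, with H3K27me3 and H3K9me3 at 100% in every BL, ICM and TE list. The remaining 3 of these 6 were chr7:40319001-40323000, chr15:84893001-84897000 and chr18:63214001-63218000. In 8A their H3K27ac coverage was 83.8% and 87.5%, 60% and 72.5%, and 77.5% and 82.5%.

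Lasting H3K27ac was longest at chr5:101238001-101241000, with 71.7% and 76.7% coverage in 8A, 96.7% and 96.7% in MO, 95% and 95% in ICM and 100% and 91.7% in TE. Its H3K4me3 was 10% and 36.7% in 4C, 96.7% and 100% in BL and 58.3% and 46.7% in ICM. The longest stretch with H3K4me3 in all 18 lists was chr6:110150001-110152000, where H3K4me3 covered at least 85% in each list and ATAC 100% in all 9. There H3K27ac covered 0% in 4C, 77.5% and 100% in 8C and 97.5% and 95% in 8A. At chr2:225001-228000 H3K4me3 was early only, 93.3% and 96.7% in 4C, 81.7% and 93.3% in 8A and 0% from MO on, while H3K27me3 covered 86.7% to 100% in every list from GV to TE. H3K9me3 covered 93.3% to 100% of it in every list of 8C, 8A, MO, BL, ICM and TE. Active and repressive marks were thus called together here too, and whether this bears on the calls was not tested. The single bin chr1:110447001-110448000 gave the late-only case, with H3K4me3 at 40% and 40% in 4C, 30% and 0% in 8A and 95% and 100% in TE.

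Among the other classes, H3K27ac went from the morula to neither tissue at chr1:10789001-10792000, with 78.3% and 88.3% in MO and 0% in ICM and TE. It was in TE and not ICM at chr1:5830001-5831000, with 60% and 75% against 0% and 0%, and ATAC covered 75%, 95% and 90% of this bin in TE and none of it in ICM. The stretch chr1:79988001-79991000 never had H3K4me3, yet H3K27ac covered 73.3% and 68.3% of it in 8C and 73.3% and 66.7% in 8A. At chr7:24262001-24265000, open in all 9 ATAC lists at 96.7% or more, H3K4me3 covered 93.3% and 98.3% in 4C and H3K27ac 0% and 13.3%, before 96.7% and 85% in 8C and 90% and 88.3% in 8A.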

How the data were processed

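CUT&Tag and ATAC-seq peak lists were analysed, 1 per library for 81 libraries, assigned to groups by their titles. The submitters' processing notes list the ARS-UCD1.2 build and, without their roles, SICER, BWA 0.7.9a, SAMtools 1.9, Picard 2.26.10, cutadapt 1.8.3 and Trim Galore 0.4.0. The lists carry the name of epic2, a related caller, so which of these made them is unsure. The cutoff, any control library and how duplicates were treated are not stated in the labels. The deposited lists give each peak's position and a whole number, a score whose meaning the authors' files do not state, so it was used only to rank peaks within a list. Library totals were not used here, so depth is unknown and no counting error can be given.

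Peaks end on a 50 bp grid (200 bp for H3K27me3 and H3K9me3) once 1 base is added to the deposited end, which was done. Log2 enrichment is the marked share of a set, with 0.5 added to each count, over that of all autosomal bins. Stage tests permuted library labels (100000 resamples, or all arrangements for ATAC); group comparisons were exact, and sets were compared by exact sign-flip tests within libraries, with Benjamini-Hochberg adjustment and a threshold of 0.05. Tests were checked on simulated data. The members, lists and tests were chosen with earlier results of these data known, and the tests of gaps between sets were added after these data were seen. Regions named are the 10 longest stretches and the longest of each of 10 classes of H3K27ac, H3K4me3 or ATAC. Alternatives were other coverage minimums, bin sizes and offsets, trimmed lists, peaks joined within 3 kb, longer stretches, 2C in the rule, each library left out and a replicate block; the closing section gives them. Same-numbered libraries of the marks deviated together by a correlation of -0.05 to 0.11, over 0.1 in 1 of 28 group pairs for H3K4me3 and in none for the other marks, so numbers were not taken as pairs. Genes, repeats and sequence were not analysed here: no genome of this build was used. Python 3.11.15, NumPy 2.4.6 and pandas 2.3.3 were used.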

Additional observations from a re-analysis of the deposited data

Results flagged for a closer look

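The gap in H3K4me3 enrichment between resistant and sensitive gains differed between periods. It was 2.76 on the log2 scale over the 6 libraries of GV, 2C and 4C and 1.60 over the 8 of MO, BL, ICM and TE, 1.16 apart (exact permutation test, two-sided, p = 0.000333, adjusted over 3 tests 0.000999). The 2 libraries of a group were shuffled singly, so this p does not measure the spread between stages within a period. Resistant gains rose over this time from 2.67 to 3.50, and sensitive gains rose from -0.23 to 0.05 in the early libraries to 1.69 to 2.21 in the late ones.

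The gap in H3K27ac enrichment between the same sets differed over MO, BL, ICM and TE. It was 0.05 ± 0.06 in MO, 0.78 ± 0.03 in BL, 0.55 ± 0.05 in ICM and 0.88 ± 0.01 in TE (SD, n = 2), with an F ratio of 151 (exact permutation test, p = 0.00952, adjusted over 3 tests 0.0143). In MO both sets were marked at 24.8% to 27.2%.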

How the results depend on the processing

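Of 598 recomputed values, 547 were labelled unchanged. For tests this meant the same side of the threshold and, where a difference was given, the same direction. For the number and share of resistant gains it meant a value near the main one. Comparisons of 2 against 2 or 3 against 3 libraries cannot reach the threshold, so they could change in direction only. The number of resistant gains (4423) became 2203 with 80% coverage, 7162 with 500 bp bins, 2039 with 2 kb bins, 1738 in trimmed lists, 824 in stretches of 2 or more bins, and, with criteria chosen after seeing the data, 1281 without any GV or 4C base and 2724 without a marked neighbour. Their share of the 8C gains (14.9%, exact 95% interval 14.5% to 15.3%, for counting of bins only) was 14.0% with any covered base and 13.3%, 13.5%, 15.4%, 11.7%, 2.78%, 7.03% and 12.1% under these settings in the same order, 15.3% with peaks joined within 3 kb and 12.4% when 2C was also unmarked. For stretches of 2 or more bins, the 2.78% is a share of all gains, single bins included. Leaving out 1 library at a time gave 4930 to 7083 resistant gains and shares of 11.5% to 23.9%.

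The p of the H3K27ac stage test was 0.0699 with bins from 500 bp and 0.00111 to 0.0736 without 1 library (permutation tests). That of the ATAC stage test (0.168) was 0.0357 with any covered base and 0.0750 to 0.418 without 1 library. The ATAC gap between sets over BL, ICM and TE had p = 0.0857 by exact permutation. It was 0.00357 with any covered base, 500 bp bins or joined peaks, 0.0179 with bins from 500 bp, 0.0357 in trimmed lists, 0.0143 without a GV or 4C base, 0.00714 without a marked neighbour and 0.0357 to 0.157 without 1 library. H3K4me3 in 8A minus 8C (-0.18) turned to 0.19 with 80% coverage and 0.01 with 2 kb bins, and was -0.33 to -0.03 without 1 library. H3K27ac in MO minus BL (-0.09) turned to 0.07 without a marked neighbour, and to 0.02 and 0.01 without 8A replicate 1 and 2, within -0.21 to 0.02 over all libraries left out. The difference between sets in early H3K4me3 was 2.14 to 2.97 without 1 library, and with 5 of its own 6 libraries the sign-flip permutation p could not fall below 0.0625. The cause of these changes was not tested.

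With the replicate block, the stage tests gave p = 0.000440 for H3K4me3, 0.000220 for H3K27me3, 4.00e-05 for H3K9me3, 0.0171 for H3K27ac and 0.222 for ATAC, and the H3K27ac gap 0.0422 (permutation tests). No call changed under the block. Replicate numbers did not pair the samples.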

Other observations

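Bins with H3K27ac in both 8A lists, in neither 8C list and in no GV or 4C list numbered 12791, more than the resistant gains. H3K4me3 marked 5704 of them (44.6%) in both 4C lists, above the 27.1% of resistant gains and the 2.42% of sensitive gains. H3K4me3 in every GV, 2C and 4C list and no later list from MO on was found at 22.3% of these bins, 3.96% of resistant gains and 0.427% of sensitive gains. H3K27ac was in no MO, BL, ICM or TE list at 81% of them, beside 63.4% of resistant and 66.0% of sensitive gains. The 3 sets are disjoint by the rule, and none of these differences was tested.

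On the X chromosome, which the rule left out, the same criteria gave 92 resistant gains among 472 gains (19.5%), a density of 0.662 per Mb against 1.78 per Mb over the autosomes. This difference was not tested.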
